A study of Rattus norvegicus with 6 samples.

Results

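The chemokines described here are 10 genes of the RSC96 transcriptome, namely Cxcl1, Cxcl2, Cxcl6, Cxcl10, Cxcl12, Cxcl16, Ccl2, Ccl7, Ccl20 and Cx3cl1. They were taken by symbol from the deposited count table, where 10 of 10 were found among 16849 genes, and all 10 passed the filter on low counts that kept 13018 genes. Their gene identifiers in the table are 81503 (Cxcl1), 114105 (Cxcl2), 60665 (Cxcl6), 245920 (Cxcl10), 24772 (Cxcl12), 497942 (Cxcl16), 24770 (Ccl2), 287561 (Ccl7), 29538 (Ccl20) and 89808 (Cx3cl1). RSC96 is an immortalised rat Schwann cell line, wild type in every library per the labels, and bulk RNA was sequenced from 6 libraries in 3 groups of 2. The PVDF@PDA group combined the hypoxia model with a piezoelectric material and the PCL@PDA group combined it with a material that is not piezoelectric, while the third group is labelled Control. The series' design text describes the hypoxia model as 24 h in medium taken from macrophages, and the labels do not say whether Control cells received that medium, so a difference from Control is one between whole conditions. The free-text label of the PCL@PDA libraries names PVDF@PDA, and their titles and treatment fields, which name PCL@PDA, were followed. Each group holds replicate 1, from batch 1, and replicate 3, from batch 3. Nothing in the labels says that these were separate cultures, so the p-values measure the spread between these samples only, which may be technical.

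Chemokines are small proteins, mostly secreted, that steer leukocytes through receptors of the G-protein-coupled family. CXC members that carry a Glu-Leu-Arg motif (Cxcl1, Cxcl2, Cxcl6) draw neutrophils, CC members such as Ccl2 and Ccl7 draw monocytes, and Cxcl10 draws activated T cells. Cytokine signals switch many of them on through the transcription factor NF-kB, Cxcl10 is also a classical interferon target, and in injured nerve Schwann cells are known as a source of Ccl2 that recruits macrophages.

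The library totals ranged from 32760123 to 35389307 counts. Levels below are CPM, the count of a gene scaled to a common library size, after TMM scaling, which corrects the library totals for composition. On that scale 3 counts correspond to 0.0861 to 0.0911 CPM. Differences are log2 values of the first group minus the second from edgeR, with their standard error (SE). A gene was called when its Benjamini-Hochberg adjusted p over all 13018 genes was below 0.05. Of the defining Schwann cell markers, S100b had 2 to 28 counts per library, Ngfr 0 to 4 and Cdh19 0 to 4, whereas Pmp22 had 1396 to 1938 and Ncam1 3368 to 4716. Part of the marker list of the labelled cell type was thus at or near 0.

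The 250 bases before the start site are shown for the genes that act on neutrophils, which were lower in both material groups (Cxcl2 without passing the test), and for Cxcl10, which was higher. They come from RefSeq (rat assembly GRCr8, newer than the assembly of the counts), run 5′ to 3′ on the gene's strand and end just before the start site. Capitals mark matches to the NF-kB motif and, in Cxcl10, also the first capitals, a match to GAAANNGAAA, the core of the interferon-stimulated response element. All 4 lie on chromosome 14, at chr14:17479322-17479571 (minus strand) for Cxcl1, chr14:17467256-17467505 (minus) for Cxcl2, chr14:17596418-17596667 (minus) for Cxcl6 and chr14:15988816-15989065 (plus) for Cxcl10.
Cxcl1: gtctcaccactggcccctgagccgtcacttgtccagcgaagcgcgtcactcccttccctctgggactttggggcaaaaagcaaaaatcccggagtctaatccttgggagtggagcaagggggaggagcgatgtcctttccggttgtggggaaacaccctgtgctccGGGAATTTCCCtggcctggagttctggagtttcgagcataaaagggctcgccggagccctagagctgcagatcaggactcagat
Cxcl2: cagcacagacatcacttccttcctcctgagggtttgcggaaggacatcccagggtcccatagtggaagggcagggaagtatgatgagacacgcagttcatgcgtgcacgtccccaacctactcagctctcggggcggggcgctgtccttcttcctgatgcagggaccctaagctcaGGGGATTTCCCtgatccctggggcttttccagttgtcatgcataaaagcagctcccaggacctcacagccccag
Cxcl6: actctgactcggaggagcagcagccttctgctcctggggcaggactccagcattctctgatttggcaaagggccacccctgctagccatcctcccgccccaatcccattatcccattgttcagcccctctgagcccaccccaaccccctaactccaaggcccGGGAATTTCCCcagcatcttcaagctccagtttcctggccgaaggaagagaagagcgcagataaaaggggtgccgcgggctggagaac
Cxcl10: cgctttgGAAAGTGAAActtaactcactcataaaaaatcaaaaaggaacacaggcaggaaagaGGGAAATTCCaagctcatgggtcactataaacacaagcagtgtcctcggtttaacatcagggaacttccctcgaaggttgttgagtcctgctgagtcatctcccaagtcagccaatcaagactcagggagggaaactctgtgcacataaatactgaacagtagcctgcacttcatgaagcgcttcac

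The NF-kB motif was searched on both strands, with overlapping matches allowed, in the 33469 rat promoters of the RefSeq table, and 3.54% of them held it. Of the 10 chemokines, 9 had an entry and 5 held the motif. It lay 84 to 74 bases before the start in Cxcl1, 74 to 64 in Cxcl2, 88 to 78 in Cxcl6 and 89 to 80 in Ccl20. In Cxcl10 it lay farther out, 187 to 178 bases before the start. The GAAANNGAAA core, which 3.41% of all promoters held, was found in Cxcl10 and in no other of the 9, at 243 to 234 bases before the start. The AP-1 motif TGANTCA was found in Cxcl10 and Ccl7 and in 6.34% of all promoters. Of the core letters of the hypoxia response element, ACGTG was found in Cxcl2 (16.6% of all promoters) and GCGTG in Cxcl2, Cxcl12 and Ccl20 (25.9%), and neither was found in Cxcl10. TATAAA was found in Cxcl10, Ccl7 and Cx3cl1 (12.9%). It lay 34 to 29 bases before the start in Ccl7, 78 to 73 in Cx3cl1 and 162 to 157 in Cxcl10. These matches describe letters in a window and are not binding data. Ccl2 is named only.

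Against Control, 8 of the 10 chemokines passed the test with PVDF@PDA and the same number with PCL@PDA, in each case 7 lower and 1, Cxcl10, higher. Cxcl1, Cxcl6, Cxcl12, Cxcl16, Ccl2, Ccl7 and Cx3cl1 fell in both comparisons, while Cxcl2 and Ccl20, the least abundant, did not pass in either. Over all genes tested, 15.7% were called with PVDF@PDA (6.79% higher and 8.9% lower) and 20.1% with PCL@PDA (8.77% higher and 11.3% lower). The median difference of the 10 was -0.69 with PVDF@PDA and -0.70 with PCL@PDA, against 0.01 over all genes in each. When scaled by library totals alone, the all-gene calls split into 1164 higher and 879 lower with PVDF@PDA, where TMM gave 884 and 1158, and into 1482 and 1070 with PCL@PDA, where TMM gave 1142 and 1474. The 10 chemokines split 1 higher and 7 lower under that scaling too. Leaving out 1 of the libraries compared lowered the all-gene count with PVDF@PDA from 2042 to between 1031 (without PVDF@PDA replicate 3) and 1267 (without Control replicate 3), and that of PCL@PDA from 2616 to 1346 without Control replicate 1. In each of these 5 fits the chemokine count stayed at 8. Without PCL@PDA replicate 1 the PCL@PDA counts were 3173 genes and 9 chemokines. Both comparisons share the Control libraries, so their values stand side by side and are not independent.

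In 9 of the 10 genes every material library lay below both Control libraries, as 20.3% of all genes tested did, and in Cxcl10 every material library lay above both, as 19.3% did. The summed level of the 10 was 1032 and 1101 CPM under PVDF@PDA, 1024 and 1003 under PCL@PDA, and 1672 and 1661 in Control (replicates 1 and 3 in each case). In counts, the 10 made up 0.102% to 0.111% of a material library and 0.164% of each Control library. In bulk RNA, fewer cells that make a transcript and less of it per cell cannot be told apart.

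**Figure D1:**
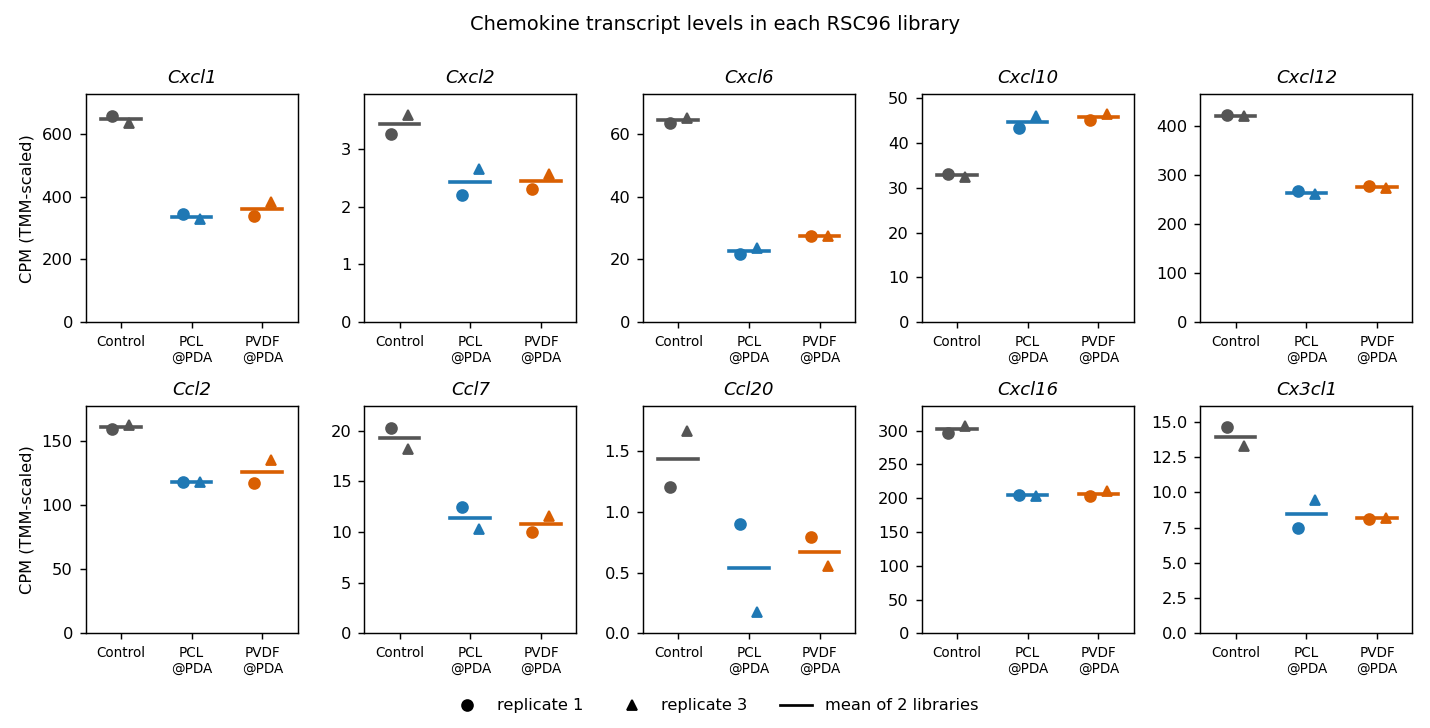
Level of each chemokine in each of the 6 libraries, 1 panel per gene, in TMM-scaled CPM on axes that start at 0, with points for libraries and bars for the mean of 2. The Control points stand above all 4 material points in every panel but that of Cxcl10, where they stand below (33.0 and 32.5 against 43.3 to 46.4 CPM).

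Cxcl1, a neutrophil attractant that signals through Cxcr2, was the most abundant of the 10, per length as well. It had 340 and 384 CPM in the PVDF@PDA libraries, 345 and 328 with PCL@PDA, and 657 and 637 in Control. The groups with a material did not overlap Control, and the highest material library was PVDF@PDA replicate 3. Cxcl1 fell by 0.84 on the log2 scale with PVDF@PDA (SE 0.05, adjusted p = 2.38e-17), or 44.1%, and by 0.94 with PCL@PDA (SE 0.05, adjusted p = 3.04e-19). Within batches the difference was -0.95 (batch 1) and -0.73 (batch 3) with PVDF@PDA, and -0.93 and -0.96 with PCL@PDA.

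Cxcl6, a neutrophil attractant of the same subgroup, showed the widest difference from Control among the chemokines called. Its level was 27.4 CPM in both PVDF@PDA libraries, 21.9 and 23.7 in the PCL@PDA libraries, and 63.6 and 65.2 in Control. The material libraries lay far from the Control pair, and the PCL@PDA pair lay lowest. Cxcl6 fell by 1.23 on the log2 scale with PVDF@PDA (SE 0.09, adjusted p = 6.14e-16), or 57.4%, and by 1.50 with PCL@PDA (SE 0.09, adjusted p = 3.72e-19), or 64.6%. By the size of the fall it was 74th and 61st of the 13018 genes. Batches gave -1.22 and -1.25 with PVDF@PDA, and -1.54 and -1.46 with PCL@PDA.

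Cxcl2, a close relative of Cxcl1 that neighbours it on chromosome 14, was far scarcer. It had 76 and 88 counts with PVDF@PDA, 76 and 91 with PCL@PDA, and 109 and 125 in Control. Every material library was below Control, but the differences of -0.49 (95% interval -1.07 to 0.09, adjusted p = 0.272) and -0.50 (-1.08 to 0.08, adjusted p = 0.247) did not pass the test. Cxcl3, a further Cxcr2 ligand that is not one of the 10, had 258 and 304 CPM under PVDF@PDA, 257 and 245 under PCL@PDA, and 375 and 379 in Control. It fell by 0.42 (SE 0.06, adjusted p = 4.64e-07) and by 0.59 (SE 0.06, adjusted p = 1.74e-10). Measured against Cxcl1 in the same library, Cxcl3 stood at 74.4 to 79.3 counts per 100 Cxcl1 counts in material libraries and at 57.1 and 59.5 in Control, and Cxcl6 at 6.34 to 8.06 and at 9.68 and 10.2. Cxcl1, Cxcl2 and Cxcl3 are related genes, and reads may have been split between them in counting, which was not tested. Their separate values are uncertain to that extent.

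Cxcl10, a ligand of Cxcr3 on activated T cells and natural killer cells, went the other way. It had 45.2 and 46.4 CPM under PVDF@PDA, 43.3 and 46.1 under PCL@PDA, and 33.0 and 32.5 in Control. The 4 material libraries lay close together and above both Control libraries. Cxcl10 rose by 0.48 with PVDF@PDA (SE 0.09, adjusted p = 3.3e-05), or 39.9%, and by 0.45 with PCL@PDA (SE 0.09, adjusted p = 9.41e-05), or 36.5%. The batches gave 0.45 and 0.52 with PVDF@PDA, and 0.39 and 0.51 with PCL@PDA. The rise was 1278th and 1366th in size among the 13018 genes, a place far lower in its direction than that of Cxcl6 among the falls. Cxcl10 made up 4.21% to 4.59% of the 10 genes' counts in material libraries against 1.98% and 1.95% in Control. Per 100 Cxcl1 counts there were 12.1 to 14 Cxcl10 counts in material libraries and 5.03 and 5.1 in Control. Cxcl10 lies between Cxcl11 and Cxcl9 and within the span of Art3 on chromosome 14 of GRCr8, and Art3 had 0 or 1 counts per library.

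Likeness to Cxcl10 was measured among 10353 genes whose log2 CPM averaged at least 1. Those whose log2 CPM followed Cxcl10 most closely over the 6 libraries were Sntb2 (Pearson r = 0.9986), Nceh1 (0.9973), Wif1 (0.9966), Lamb1 (0.9958) and Hspb8 (0.9952). Wif1, which encodes a secreted Wnt inhibitor, had 8.14 and 8.12 CPM under PVDF@PDA, 6.77 and 8.03 under PCL@PDA, and 3.66 and 3.67 in Control. Lamb1, a laminin chain of the basement membrane, had 345 and 345, 338 and 349, and 298 and 300 CPM in the same order. The 6 points fall into a Control pair and 4 material libraries, so r describes these libraries and carries no test.

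Cxcl12, a ligand of Cxcr4 that many stromal cells make without stimulation, had 278 and 275 CPM under PVDF@PDA, 267 and 261 under PCL@PDA, and 423 and 421 in Control. The libraries of a group were within a few CPM of each other, and the groups with a material were well apart from Control. Cxcl12 fell by 0.61 (SE 0.05, adjusted p = 2.29e-13), or 34.4%, with PVDF@PDA and by 0.67 (SE 0.05, adjusted p = 4.48e-15), or 37.4%, with PCL@PDA. Within batches it was -0.60 and -0.61, and -0.66 and -0.69.

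Of the CC chemokines, Ccl2, the main monocyte attractant, had 117 and 135 CPM with PVDF@PDA, 118 in both PCL@PDA libraries, and 159 and 162 in Control. PVDF@PDA replicate 3 was the material library nearest to Control. Ccl2 fell by 0.35 (SE 0.06, adjusted p = 3.05e-05), or 21.5%, with PVDF@PDA and by 0.45 (SE 0.06, adjusted p = 1.96e-07), or 26.6%, with PCL@PDA, the smallest fall among the chemokines called. Its batches gave -0.44 and -0.27, and -0.44 and -0.46. Ccl7, its neighbour on chromosome 10 and also a monocyte attractant, had 9.96 and 11.6, 12.5 and 10.3, and 20.3 and 18.2 CPM. Its groups did not overlap Control either. The Ccl7 difference was -0.83 (SE 0.14, adjusted p = 1.25e-05) and -0.76 (SE 0.14, adjusted p = 5.16e-05), with -1.03 and -0.65, and -0.70 and -0.82 within batches. Per 100 Ccl2 counts there were 8.49 to 10.6 Ccl7 counts in material libraries and 12.7 and 11.2 in Control.

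Ccl20, the ligand of Ccr6, was the scarcest of the 10. It had 26 and 19 counts with PVDF@PDA, 31 and 6 with PCL@PDA, and 40 and 58 in Control. The PCL@PDA libraries were far apart, and no material library reached Control. Its differences of -1.09 (95% interval -2.27 to 0.08, adjusted p = 0.215) and -1.42 (-2.61 to -0.22, adjusted p = 0.0873) did not pass. With the batch as a block, the PCL@PDA difference passed at -1.58 (adjusted p = 0.0386), as it did without PCL@PDA replicate 1 (-3.03, adjusted p = 0.00645), which makes 9 chemokines called, 8 of them lower. These few counts limit what the depth can show for Ccl20.

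Cxcl16 and Cx3cl1 encode the chemokines that are made as membrane proteins and released by cleavage. Cxcl16, which binds Cxcr6, had 203 and 210 CPM under PVDF@PDA, 205 and 203 under PCL@PDA, and 297 and 307 in Control. The 4 material libraries differed little from each other. Cxcl16 fell by 0.55 (SE 0.05, adjusted p = 3.4e-11) and by 0.56 (SE 0.05, adjusted p = 7.95e-12), with -0.55 in both batches for PVDF@PDA and -0.53 and -0.60 for PCL@PDA. It overlaps Zmynd15 in GRCr8, and the counting strand is not given in the sources used here, but Zmynd15 had 236 to 365 counts per library where Cxcl16 had 6699 to 10704. Cx3cl1, which neurons use to signal to microglia and macrophages, had 8.11 and 8.21, 7.49 and 9.46, and 14.6 and 13.3 CPM. Again no material library reached Control. Cx3cl1 fell by 0.77 (SE 0.16, adjusted p = 0.000324) and by 0.72 (SE 0.16, adjusted p = 0.000641), with -0.85 and -0.69, and -0.96 and -0.49 within batches.

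**Figure D2:**
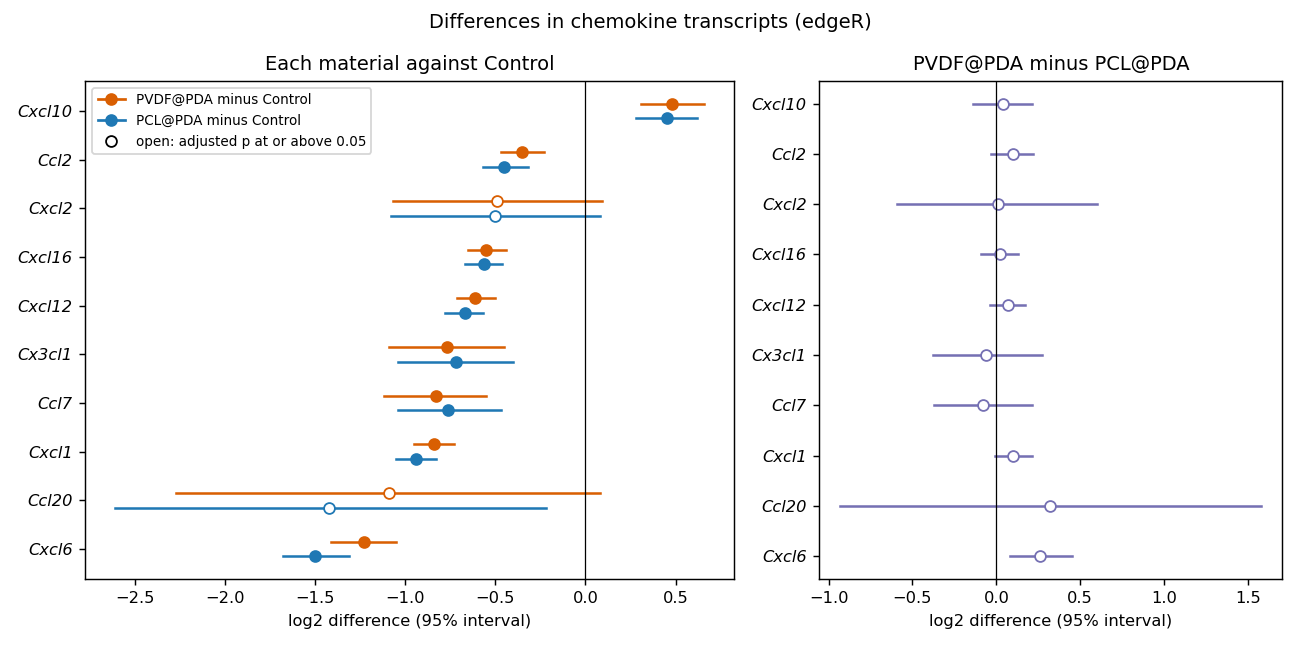
Log2 differences of the 10 chemokines (points) with 95% intervals (lines) from edgeR, each material against Control on the left and PVDF@PDA minus PCL@PDA on the right, with 0 marking no difference. On the left Cxcl10 alone lies to the right of 0 (0.48 and 0.45), and on the right the interval of Cxcl6 (0.08 to 0.45) does not reach 0 before adjustment over all genes.

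The comparison of PVDF@PDA with PCL@PDA is the one by which the design text sets out to assess piezoelectricity. Both groups share the hypoxia model, but they also differ in the material itself, and the effects of the material and of piezoelectricity cannot be told apart. None of the 10 chemokines passed edgeR's test, where 0.0615% of all genes did (8 of 13018). At an unadjusted p under 0.05 there was 1, Cxcl6, where 8.49% of all genes were, and DESeq2 and limma called none. Cxcl6 was 27.4 ± 0.0209 CPM (SD, n = 2) with PVDF@PDA and 22.8 ± 1.30 with PCL@PDA, a difference of 0.26 (95% interval 0.08 to 0.45, adjusted p = 0.416) that had the same sign in both batches (0.32 and 0.21). Cxcl10 differed by 0.04 (-0.14 to 0.21), Cxcl12 by 0.07 (-0.04 to 0.17) and Cxcl16 by 0.02 (-0.09 to 0.13), so for these the intervals exclude differences as large as those from Control. Cxcl1 differed by 0.10 (-0.01 to 0.21) and Ccl2 by 0.10 (-0.03 to 0.22), with -0.02 and 0.00 in batch 1 and 0.23 and 0.19 in batch 3, so neither difference was seen in batch 1. The rarer genes were bounded less tightly, with intervals of -0.37 to 0.21 for Ccl7, -0.38 to 0.27 for Cx3cl1, -0.59 to 0.60 for Cxcl2 and -0.93 to 1.58 for Ccl20. The median difference of the 10 was 0.05, against 0.00 over all genes. Without PCL@PDA replicate 1 the all-gene count was 827 and without PVDF@PDA replicate 3 it was 0, and none of the 10 was called in either fit. Cxcl3 differed by 0.16 (0.05 to 0.28, adjusted p = 0.424) and was called in 1 alternative, without PCL@PDA replicate 1 (0.20, adjusted p = 0.0248).

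Levels of different genes were compared per length, in the deposited FPKM values. Over the 6 libraries Cxcl1 had a mean of 479 FPKM (358 to 689) and Ccl2 of 173 (151 to 205), above 99.3% and 97.7% of the genes in the table. Cxcl16 followed at 139 (120 to 177), and then came Cxcl12 at 46.2 (38.5 to 59.9), Cxcl10 at 36.3 (28.2 to 41.4), Cxcl6 at 24.4 (14.1 to 41.3) and Ccl7 at 17.1 (12.4 to 24.6). Cx3cl1, Cxcl2 and Ccl20 were the lowest, with means of 3.01, 2.5 and 1.07. The order of the middle genes differed between groups. In Control, Cxcl12 (59.8 ± 0.0672 FPKM) stood above Cxcl6 (40.7 ± 0.874) and Cxcl6 above Cxcl10 (28.3 ± 0.231), with no overlap between libraries. With PVDF@PDA, Cxcl10 (40.7 ± 0.833) and Cxcl12 (40.2 ± 0.207) differed by less than their spread, and Cxcl6 was at 17.8 ± 0.0523. With PCL@PDA, Cxcl10 (39.9 ± 2.18) and Cxcl12 (38.6 ± 0.156) did not separate, and neither did Cxcl6 (14.9 ± 1.01) and Ccl7 (14.3 ± 1.73).

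**Figure D3:**
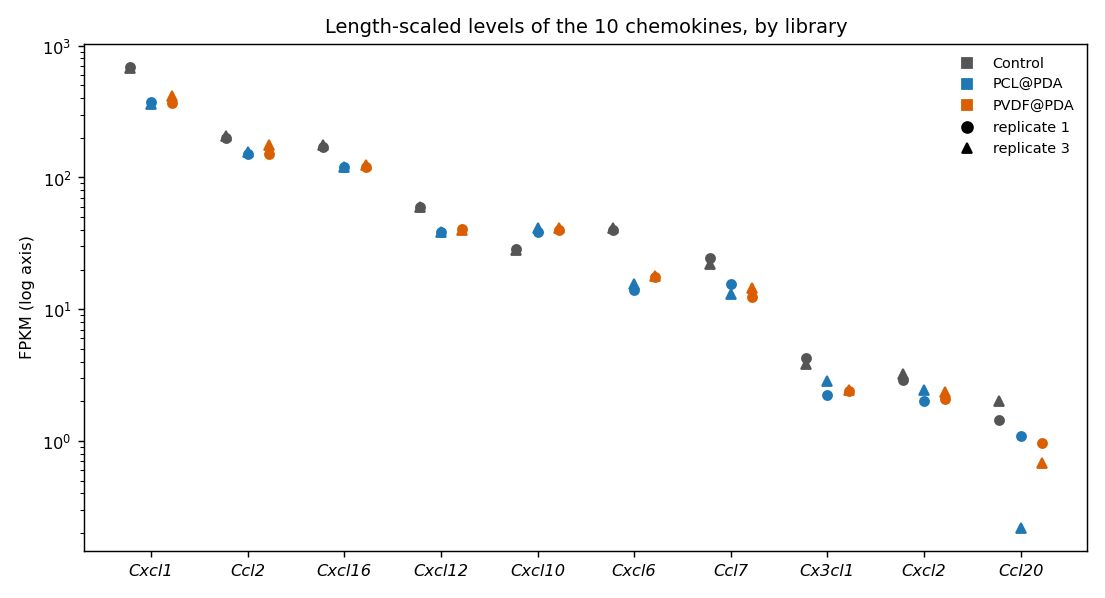
Deposited FPKM of each chemokine in each library on a log axis, with colours for groups and marker shapes for replicates. Cxcl1 lies highest in all 6 libraries (358 to 689 FPKM), and Cxcl10 lies above Cxcl6 in the 4 material libraries but below it in Control.

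Of 26 other chemokine genes that were looked up, 14 were in the table and 3 were tested. Cxcl3, described above, was the 1 of these 3 that passed in each comparison with Control. Of all genes, 8.9% (PVDF@PDA) and 11.3% (PCL@PDA) were called lower, and 3 genes are too few to set against these shares. Cxcl11, which shares Cxcr3 with Cxcl10, had 37 and 12 counts with PVDF@PDA, 8 and 10 with PCL@PDA, and 38 and 16 in Control. These replicates differ too much to place it on either side (log2 -0.12, adjusted p = 0.935, and -1.61, adjusted p = 0.126). Ccl25 had 2 to 16 counts per library and did not pass. Of 23 chemokine receptors, 16 were in the table and 4 were tested. Receptors of several of the 10 were at or near 0, with 0 to 2 counts of Cxcr2, 0 to 3 of Cxcr3, 0 to 6 of Cxcr6, 0 or 1 of Ccr6 and 0 or 1 of Cx3cr1. Ccr1, which binds Ccl7, had 12 to 32 counts, and Cxcr4 and Ccr2 were looked up but were not among the 16 in the table. No receptor passed edgeR's test against Control, with 1 (PVDF@PDA) and 0 (PCL@PDA) of the 4 at an unadjusted p under 0.05, where 28.2% and 31% of all genes were, and DESeq2 and limma called none. The most counted was Cxcr5, with 20 to 71 counts.

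NF-kB genes were mostly lower in the material groups. Of 15 tested subunits, inhibitors and kinases, 9 fell with PVDF@PDA and 8 with PCL@PDA, where 8.9% and 11.3% of all genes did. None rose in edgeR, and the medians were -0.27 and -0.21. When scaled by library totals alone, 7 fell with PVDF@PDA, where 6.75% of all genes did. Both limma fits called Nfkbib higher with PCL@PDA (adjusted p = 0.0431 on log2(FPKM + 1) and 0.0394 on log2(FPKM + 0.1)). Nfkbia, the inhibitor IkB-alpha and itself an NF-kB target, had 60.5 and 61.8 CPM under PVDF@PDA, 64.8 and 58.4 under PCL@PDA, and 100 and 111 in Control, with differences of -0.79 (adjusted p = 1.51e-12) and -0.78 (adjusted p = 1.82e-12). Nfkb1, which encodes an NF-kB subunit, differed by -0.74 and -0.66, Nfkb2 by -0.52 and -0.45, and the nuclear regulator Nfkbiz by -0.55 and -0.78. Nfkbia, Nfkb1, Nfkb2 and Nfkbiz were called in both comparisons. Rel, at 0.13 and 0.06, was the 1 gene of the list with positive values in both.

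Of 14 tested cytokines and receptors that act upstream of chemokines, 1 was higher and 2 lower with PVDF@PDA, and 2 were lower with PCL@PDA. With 15.7% and 20.1% of all genes called, these counts are near the background. Il1a, the alarm cytokine interleukin-1 alpha, had 1.67 and 2.45 CPM under PVDF@PDA, 1.88 and 2.42 under PCL@PDA, and 7.14 and 6.74 in Control. Its differences were the widest of this list, at -1.75 (SE 0.26, adjusted p = 1.17e-06) and -1.69 (SE 0.26, adjusted p = 1.64e-06). The interferon-gamma receptor chain Ifngr2 fell too (-0.38, adjusted p = 0.00971, and -0.32, adjusted p = 0.0291), and Tlr4, the endotoxin receptor, rose with PVDF@PDA (0.50, adjusted p = 0.0331). With PCL@PDA Tlr4 differed by 0.35 (95% interval 0.01 to 0.68, adjusted p = 0.143), and between the materials by 0.15 (adjusted p = 0.833). The Ifngr2 call ended in both limma fits (adjusted p = 0.0861 and 0.0789 with PVDF@PDA, 0.126 and 0.12 with PCL@PDA) and, with PCL@PDA, when scaled by library totals alone (0.0739). It also ended without PVDF@PDA replicate 3 (adjusted p = 0.161) or Control replicate 3 (0.0799) and, with PCL@PDA, without PCL@PDA replicate 1 (0.22), Control replicate 1 (0.102) or Control replicate 3 (0.151). The Tlr4 call ended whichever of the 4 libraries compared was left out (adjusted p = 0.0666 to 0.292) and in limma on log2(FPKM + 1) (0.0513).

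The interferon response genes that passed the test were lower with both materials, Oasl excepted, while Cxcl10 was higher. Of 18 tested, 7 fell and none rose with PVDF@PDA, and 7 fell and 1, Oasl, rose with PCL@PDA. Of all genes, 8.9% and 11.3% fell and 6.79% and 8.77% rose. The medians of the list were -0.24 and -0.21. Oasl differed by 0.19 with PVDF@PDA (adjusted p = 0.0884) and by 0.24 with PCL@PDA (adjusted p = 0.0203). With PVDF@PDA it was called higher with the batch as a block (0.048), by library totals alone (0.0459) and with only the 4 libraries compared (0.0313). Without PCL@PDA replicate 1 or 3 it differed by 0.19 and 0.18. Ifi44 was called lower with PVDF@PDA with only the 4 libraries compared (-0.25, adjusted p = 0.0491). Oas1a was called lower with PCL@PDA in limma on log2(FPKM + 1) (-0.45, adjusted p = 0.0438). Irf9 differed by -0.22 with PVDF@PDA, and by -0.40 without PVDF@PDA replicate 1. Gbp2, a guanylate-binding protein, had 264 and 262 CPM under PVDF@PDA, 268 and 248 under PCL@PDA, and 477 and 469 in Control, so that every material library was below Control (log2 -0.85, adjusted p = 2.29e-18, and -0.87, adjusted p = 3.72e-19). The GTPase gene Mx2 fell by 1.89 and 2.37, Gbp5 by 1.19 and 1.39, and the transcription factor Irf1 by 0.36 and 0.33. Irf7, Ifit2 and Mx1 made up the rest of those that fell. Without PVDF@PDA replicate 3 fewer of this list were called with PVDF@PDA, and so were fewer of all genes.

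Of 7 genes for proteins that bind chemokine transcripts and set their decay, 2 fell with PVDF@PDA and 3 with PCL@PDA, where 8.9% and 11.3% of all genes did. Zc3h12a, an endonuclease that degrades inflammatory transcripts, had 17.0 and 18.3 CPM under PVDF@PDA, 21.6 and 22.8 under PCL@PDA, and 32.2 and 30.1 in Control (-0.82, adjusted p = 8.32e-08, and -0.49, adjusted p = 0.000573). Zfp36l2, a decay factor for AU-rich transcripts, fell by 0.23 and 0.28. The third gene with PCL@PDA was Hnrnpd (-0.19, adjusted p = 0.028), whose call ended without PCL@PDA replicate 3 (adjusted p = 0.382) or Control replicate 1 (0.371), with DESeq2 (0.0616), by library totals alone (0.0888) and in both limma fits (0.225 and 0.212). Of 6 tested proteases that release or trim chemokines, Mmp9 alone was called, a share near the 15.7% and 20.1% of all genes. It rose, with 6.29 and 6.19, 5.01 and 6.95, and 2.25 and 3.67 CPM (1.07, adjusted p = 0.000781, and 1.01, adjusted p = 0.00128). Without Control replicate 1 neither call held (adjusted p = 0.0643 and 0.0857), nor did that of PCL@PDA without its replicate 3 (0.0566). The main sheddases of Cx3cl1 and Cxcl16 were not called, with Adam10 at 83.8 to 97.9 CPM and Adam17 at 81.5 to 92.9. Mmp14 differed by -0.20 with PVDF@PDA and -0.10 with PCL@PDA. With PVDF@PDA it was called lower with the batch as a block (adjusted p = 0.0471) and with only the 4 libraries compared (0.0271). Mmp3 differed by 0.36 with PVDF@PDA and -0.19 with PCL@PDA, and by 0.75 with PVDF@PDA without PVDF@PDA replicate 1. Between the materials, 8.49% of all genes were at an unadjusted p under 0.05 in edgeR. So were 1 of 3 other chemokines, 0 of 4 receptors, 3 of 15 NF-kB genes and 2 of 14 cytokines and receptors. The same held for 0 of 18 interferon response genes, 1 of 7 decay genes and 2 of 6 proteases. Where edgeR called 0.0615% of all genes, no gene of these 7 lists was called by edgeR, DESeq2 or limma between the materials. Without PCL@PDA replicate 1, Hnrnpd was called between them (0.19, adjusted p = 0.0481), as was Cxcl3.

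**Figure D4:**
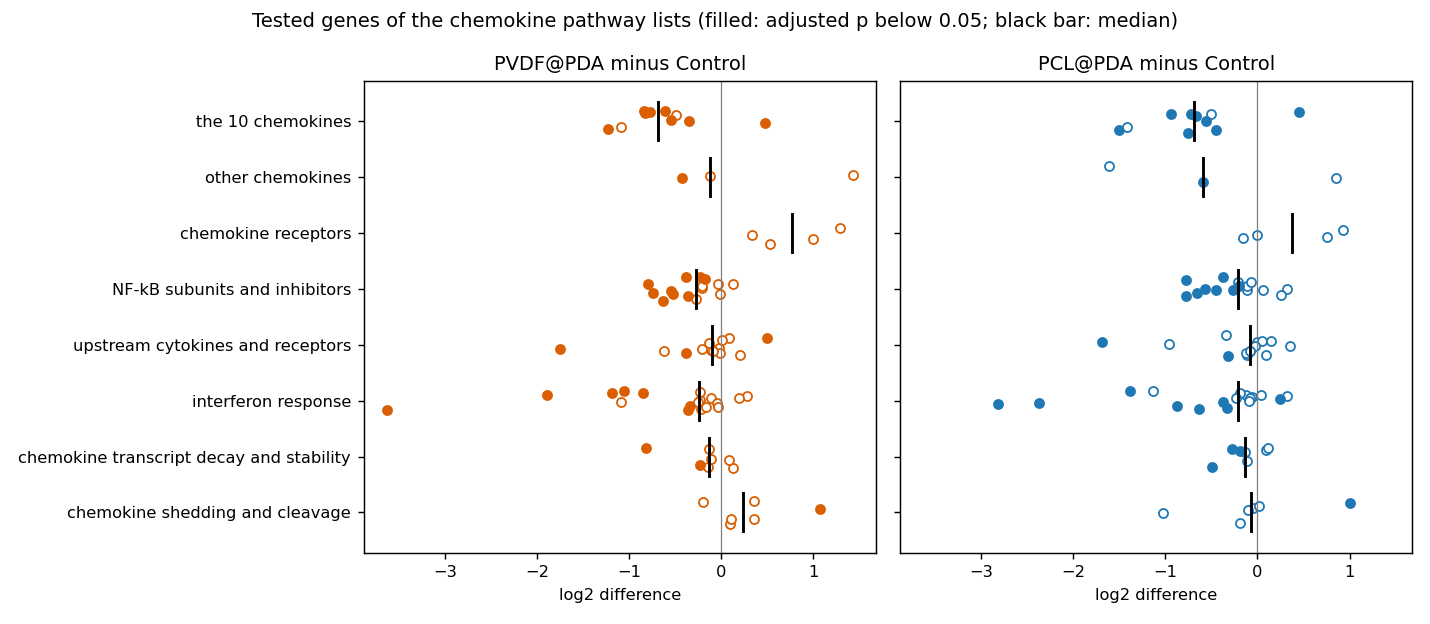
Log2 differences from Control of the tested genes of each list (points, filled where adjusted p was below 0.05 in edgeR) and their median (black bar), PVDF@PDA on the left and PCL@PDA on the right. The 10 chemokines have medians of -0.69 and -0.70, the NF-kB list of -0.27 and -0.21, and the interferon list of -0.24 and -0.21, and Cxcl10 (0.48 and 0.45) is the filled chemokine point to the right of 0.

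Markers of cells that could add chemokine transcripts were measured beside them. Of 13 macrophage markers, 10 were in the table and 6 were tested, and Ptprc, which all leukocytes express, had 0 or 1 counts per library. Their summed level was 7.91 to 9.02 CPM in material libraries and 8.24 to 8.28 in Control, most of it Cd14 (4.51 to 5.05 against 5.91 and 6.11). Coro1a went the other way, with 1.58 to 1.97 CPM against 0.9 and 0.832 (adjusted p = 0.0847 and 0.0852). Lyz2 did too, with 0.547 to 0.876 CPM against 0.33 and 0.402, and Cd68 had 3 to 31 counts against 0 and 10. Csf1r had 2 to 14 counts against 14 and 1, and Fcer1g 2 to 20 against 24 and 12. The median difference of the 6 tested was 0.82 with PVDF@PDA and 0.55 with PCL@PDA, against 0.01 over all genes in each. No macrophage marker was called in the edgeR fit of all 6 libraries, and none was called by DESeq2. In edgeR 3 of 6 (PVDF@PDA) and 1 of 6 (PCL@PDA) were at an unadjusted p under 0.05, where 28.2% and 31% of all genes were. Coro1a was called higher with both materials in limma on log2(FPKM + 1) (adjusted p = 0.028 and 0.0239) and on log2(FPKM + 0.1) (0.0286 and 0.0256). With PVDF@PDA, Cd68 was called higher with the batch as a block (2.44, adjusted p = 0.0251), with no filter (0.0438) and with only the 4 libraries compared (0.0182), where Fcer1g was called lower (-2.57, adjusted p = 0.0384). Cd68 was also called, with PVDF@PDA, without PCL@PDA replicate 3 (2.46). It was called with both materials without Control replicate 3, but there Control was 1 library with 0 Cd68 counts, so the log2 value was not defined. T cell markers summed to 0.35 to 1.27 CPM against 0.3 and 0.603, and endothelial markers to 6.28 to 7.26 against 8.28 and 8.35. Fibroblast markers summed to 808 to 836 CPM against 855 and 860, and 2 of 4 tested (Col1a1 and Pdgfra) were higher and 1 (Col1a2) lower, as they were with both materials. Of all genes, 15.7% (PVDF@PDA) and 20.1% (PCL@PDA) were called. The Col1a2 call ended when scaled by library totals alone (adjusted p = 0.0934 with PVDF@PDA and 0.114 with PCL@PDA), in both limma fits (0.158 and 0.168) and without either Control library (0.149 to 0.209 and 0.136 to 0.203). It also ended without PVDF@PDA replicate 1 (0.247 and 0.069) or replicate 3 (0.183 and 0.0699) and, with PCL@PDA, in the fit of only the 4 libraries compared (0.0724). Of the Schwann cell markers, Ncam1 and Pmp22 were higher with both materials, Egr2 with PCL@PDA, and Erbb3 was lower with both. The calls of Pmp22 (adjusted p = 0.219 and 0.248) and, with PCL@PDA, of Ncam1 (0.151) ended without Control replicate 1, and that of Egr2 without replicate 3 of PCL@PDA (0.0728) or of Control (0.257), as well as in limma on log2(FPKM + 0.1) (0.0589). Pmp22 was also not called without PVDF@PDA replicate 3 (0.326 with PVDF@PDA) or in limma on log2(FPKM + 1) (0.0592 and 0.0521). The part of these shifts in the chemokine differences was not tested.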

How the data were processed

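Total RNA of RSC96 cells was sequenced in 6 libraries, and groups were taken from their titles. Raw counts of reads for each gene, in whole numbers, were deposited in 1 table. FPKM was deposited library by library, and count over FPKM gave 1 length per gene within a relative deviation of 3.31e-07, so the authors' scaling was by gene length and library total. The submitters' processing notes list DESeq2 1.4.5 and the assembly mRatBN7.2 but give them no role. For the aligner, counter, annotation and strand, nothing is given in the sources used here.

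The edgeR 4.0.16 fit (R 4.3.3) used filterByExpr, which removed 3831 genes, TMM scaling and a robust quasi-likelihood model of 3 group means over all 6 libraries (3 residual degrees of freedom, median prior degrees of freedom 50.3, coefficient of variation 6.47%). Each pair of groups was compared by a 2-sided F test, and the SE is the log2 value over the root of F. DESeq2 1.42.0, limma 3.58.1 on log2(FPKM + 1) and log2(FPKM + 0.1), other scalings, no filter and each library left out were alternatives. A further one had the batch as a block, since per the labels replicate 1 of each group belongs to batch 1 and replicate 3 to batch 3. Deviations from the group mean correlated within a batch at r = -0.01, 0.05 and 0.13. Replicates of a group differed by more than sampling noise (chi-square per degree of freedom 4.39 for PVDF@PDA, 9.04 for PCL@PDA and 5.05 for Control, and over the 10 chemokines 14.9, 4.96 and 2.68). The floor of 3 counts covers counting error only.

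The chemokines and gene lists were chosen with earlier results of these data known, so a list's count is no independent evidence of its direction. All 10 members and the 5 genes most correlated with Cxcl10 are named. Of each list, the rule took up to 4 tested genes with the smallest p, and not all of those are named. Irf7, Irf9, Ifit2, Ifi44, Mx1, Oas1a, Oasl, Rel, Nfkbib, Adam17, Lyz2, Csf1r, the receptors near 0 and the markers near 0 are outside that rule. They were picked with their values known. Some Schwann cell markers are not reported here. RefSeq (GRCr8) matched 16673 of 16849 gene IDs and gave promoters and neighbours only.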

Additional observations from a re-analysis of the deposited data

How the results depend on the processing

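With PVDF@PDA against Control, 8 chemokines, 1 higher and 7 lower, were called in all 15 alternatives, and 150 of 150 single values kept their direction and call. With PCL@PDA against Control, 148 of 150 did, and the count was 8 except for 9 with the replicate block and 9 without PCL@PDA replicate 1, where Ccl20 passed (log2 -1.58, adjusted p = 0.0386, and -3.03, adjusted p = 0.00645). The block changed no other chemokine call. Between the materials none was called in any alternative, and 9 of 150 values changed sign, all with 1 library left out. Over all 15 alternatives the genes concerned ranged from -0.12 to 0.15 (Cxcl2), -0.01 to 0.08 (Cxcl10) and -0.01 to 0.04 (Cxcl16). The others ranged from -0.01 to 0.19 (Ccl2), -0.21 to 0.06 (Ccl7), -0.42 to 1.94 (Ccl20) and -0.21 to 0.12 (Cx3cl1). The all-gene count between the materials was 8, 59 with the block, 6 with DESeq2, 0 with limma and 0 to 827 with 1 library left out. Against Control it ranged from 859 (limma) to 2869 with PVDF@PDA and from 1304 (limma) to 3173 with PCL@PDA. Depth limits Ccl20 (6 to 58 counts) and Cxcl2 (76 to 125) most. The cause of these dependences was not tested.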
